A study of Mus musculus with 12 samples.

Results

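RNA was measured in 4 liver tumors of p21+/Tert mice and in the non-tumoral livers of the same animals, 8 libraries of the 12 in the series. These mice carry the telomerase reverse transcriptase gene Tert under the promoter of Cdkn1a, which encodes the cell cycle inhibitor p21, on 1 allele, on a C57BL/6 background, and were killed at over 18 months on a standard diet. The other 2 tumors and 2 livers come from p21+/TertCi mice, in which the transgene encodes a catalytically inactive TERT. Mice of both genotypes keep the Tert gene at its own locus, though the paper reports its loss in a large share of the tumors. The members were chosen by genotype and tissue in the labels. The tumors are named here, in order, T-HCC662 and T-HCC663, then T-HCC941, then T-HCA992, with NT-662, NT-663, NT-941 and NT-992 for the livers of the same mice. NT-662 is labelled p_961 and was matched by elimination, because the other 3 livers carry their mouse's number. By histology, T-HCC662 and T-HCC941 were carcinomas and T-HCA992 an adenoma, and T-HCC663 is called an adenoma in one place and a carcinoma in another. Each sample is a bulk of cells, in which fewer cells of a type and less RNA per cell cannot be told apart.

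The liver makes urea, bile acids and most plasma proteins, and its hepatocytes divide rarely in the adult. Cells that divide copy their DNA and then separate the copies in mitosis, with a set of kinases, kinesins and centromere proteins made mainly between DNA replication and division. Growth hormone, released in pulses in males, sets a second layer of liver expression, in which some genes are made mainly by males and others mainly by females.

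Between 14571716 and 26170661 reads were counted on genes in these 8 libraries. Values are given as CPM, counts per 1000000 of the scaled library, always in the order of the names above. Fold changes are those of tumors over livers on the log2 scale, and ± gives an SE derived from the test's F value. Summed over 8 hepatocyte markers, the level was 65180 to 79060 CPM in livers and 54840, 31180, 146500 and 148400 CPM in the tumors. T-HCC662 and T-HCC663 thus lay below every liver and T-HCC941 and T-HCA992 above every liver, and none of these 8 genes passed the test. The 4 Y-linked genes looked at were read in every one of these libraries. Of 15182 genes tested, 637 rose and 349 fell in tumors at an adjusted p under 0.05, which is 4.2% and 2.3%, and the median log2 fold change over all of them was 0.04. All tumors lay above all livers in 8.13% of the genes and below them in 7.17%. Among the called genes, 581 rose and 342 fell without overlap between the groups. Without NT-662 the numbers called higher and lower, 637 and 349 with every library, were 151 and 89, without NT-663 222 and 125, without NT-941 258 and 166, and without T-HCC941 407 and 180, while 422 rose without NT-992.

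**Figure D1:**
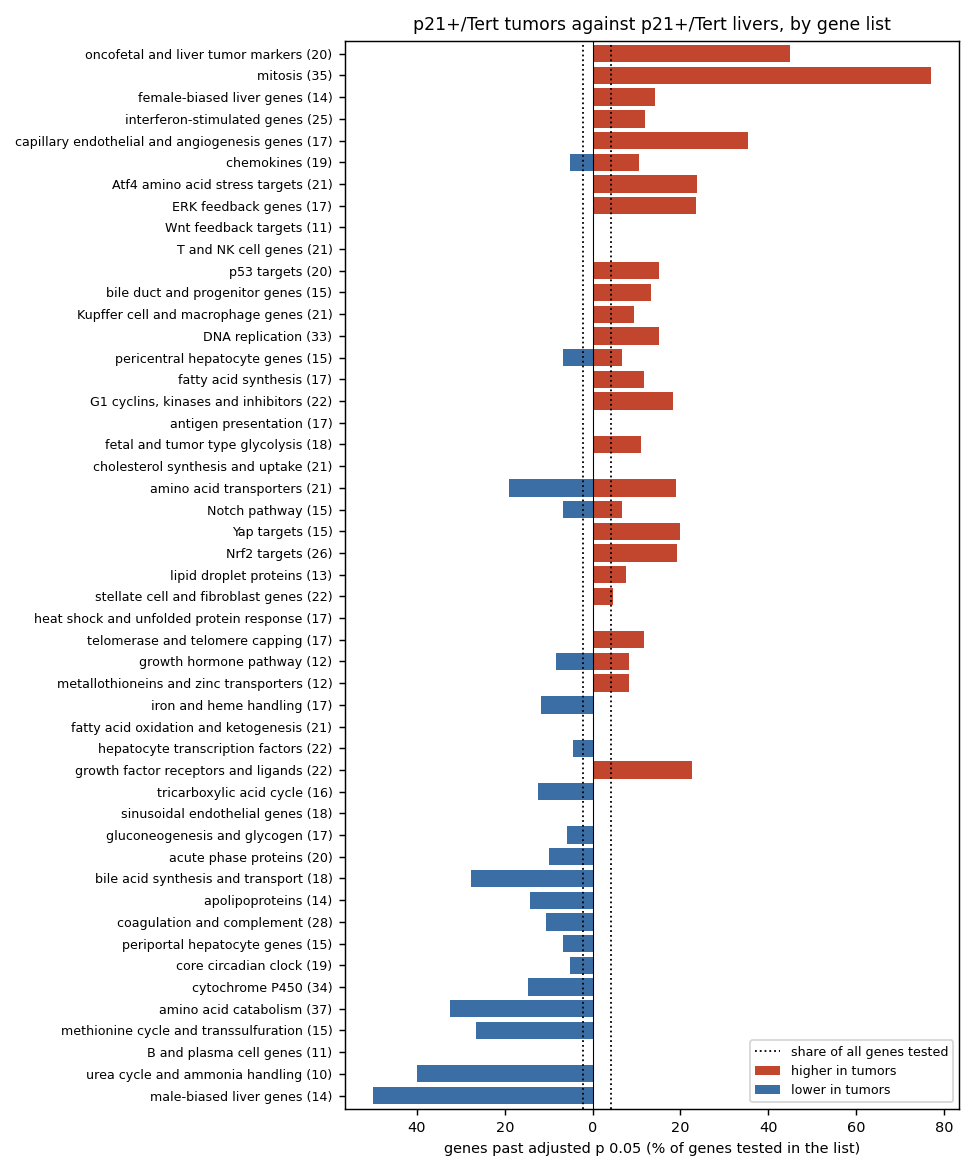
Share of the tested genes of each list (number tested in brackets) that rose (red, to the right) or fell (blue, to the left) in p21+/Tert tumors at an adjusted p under 0.05, ordered by the list's median log2 fold change. Dotted lines mark the shares over all genes, 4.2% and 2.3%; mitosis genes reach furthest to the right and male-biased liver genes furthest to the left.

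The transgene's gene and its promoter's gene were looked at first. Tert had 17.5, 11.6, 10.7 and 14.2 CPM in the livers and 7.91, 4.62, 9.22 and 26.1 CPM in the tumors, with a log2 fold change of -0.17 ± 0.44, adjusted p = 0.85, and the groups overlapped. Reads of the transgene and of the endogenous gene are counted together. Cdkn1a had 1.64, 3.84, 4.16 and 28.6 CPM in the livers and 38.6, 32.4, 79.6 and 74.2 CPM in the tumors. Every tumor lay above every liver, but NT-992 stood well above the other livers. In edgeR the difference missed the threshold without pairing (log2 fold change of 2.54 ± 0.85, adjusted p = 0.102) and passed it with mouse as a block (adjusted p = 0.0357). DESeq2, also without pairing, called Cdkn1a (adjusted p = 0.0115). Hnf4a, which encodes a defining transcription factor of hepatocytes, had 608, 755, 687 and 746 CPM in the livers and 590.1, 469, 765 and 646 CPM in the tumors, with a log2 fold change of -0.18 ± 0.26, adjusted p = 0.726. In the list of 17 genes of telomerase and telomere capping, 2 rose and none fell. Pif1, a helicase that removes telomerase from DNA ends, had 1.14, 0.577, 1.00 and 0.160 CPM in the livers and 5.41, 6.00, 5.25 and 4.26 CPM in the tumors (log2 fold change of 2.87 ± 0.66, adjusted p = 0.0278). Ten1, a subunit of the CST complex at telomeres, had a log2 fold change of 2.08, and the median over the list was 0.09. Without any 1 of NT-662, NT-663, NT-941 and T-HCC941, only 1 of these 17 genes was called.

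Genes of mitosis rose together. Of 35 tested, 27 rose and none fell, 33 had all tumors above all livers, and the median log2 fold change was 3.42. The promoters of 4 of them are shown first, the 4 of smallest p whose window holds the letters TTTGAA, which name the CHR element that the DREAM and MuvB complexes read in cell cycle genes. Ect2 activates RhoA at the cleavage furrow, Aurka is the Aurora A kinase of the spindle poles, Prc1 bundles the microtubules of the central spindle, and Spc25 is a subunit of the NDC80 complex, which ties kinetochores to microtubules. Each window runs from 250 bases before to 50 after the gene's start (RefSeq, GRCm38.p6), 5′ to 3′ on the gene's strand, with TTTGAA in capitals.
Ect2 (chr3:27153829-27154128, minus strand): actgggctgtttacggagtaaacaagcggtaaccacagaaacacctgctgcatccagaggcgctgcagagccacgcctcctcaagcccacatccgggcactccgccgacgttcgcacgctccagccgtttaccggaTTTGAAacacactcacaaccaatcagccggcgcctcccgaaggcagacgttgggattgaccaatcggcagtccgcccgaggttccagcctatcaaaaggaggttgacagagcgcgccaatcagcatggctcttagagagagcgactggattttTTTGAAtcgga
Aurka (chr2:172370521-172370820, minus strand): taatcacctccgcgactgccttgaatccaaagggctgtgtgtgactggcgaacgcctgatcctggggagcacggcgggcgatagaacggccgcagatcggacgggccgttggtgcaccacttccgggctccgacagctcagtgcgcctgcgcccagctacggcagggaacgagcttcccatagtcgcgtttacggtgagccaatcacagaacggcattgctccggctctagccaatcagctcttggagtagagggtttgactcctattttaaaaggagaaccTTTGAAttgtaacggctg
Prc1 (chr7:80294201-80294500, plus strand): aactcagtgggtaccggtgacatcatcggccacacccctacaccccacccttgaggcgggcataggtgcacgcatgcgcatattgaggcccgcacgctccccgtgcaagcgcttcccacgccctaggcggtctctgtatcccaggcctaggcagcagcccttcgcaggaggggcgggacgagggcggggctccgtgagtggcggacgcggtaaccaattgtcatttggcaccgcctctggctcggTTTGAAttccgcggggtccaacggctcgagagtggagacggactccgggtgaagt
Spc25 (chr2:69206164-69206463, minus strand): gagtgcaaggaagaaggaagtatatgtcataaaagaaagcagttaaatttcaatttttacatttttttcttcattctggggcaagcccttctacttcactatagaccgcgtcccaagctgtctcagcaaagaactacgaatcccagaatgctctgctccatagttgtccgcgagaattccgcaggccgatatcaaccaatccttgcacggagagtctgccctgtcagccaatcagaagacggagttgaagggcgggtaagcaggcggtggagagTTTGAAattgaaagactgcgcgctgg
The element begins at position 33 from the start in Aurka, 25 in Spc25, -5 in Prc1, and both -114 and 40 in Ect2.

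Windows were at hand for 27 of the 35 mitosis genes, and a gene with several starts counts as holding a motif if any of its windows does. TTTGAA, on either strand, was in 20 of these 27 genes (74.1%), against 14.8% of the 11191 tested genes with a window and 17.9% of all 32851 windows. In 18 genes a match began within 50 bases of a start. CCAAT, the letters that NF-Y reads, was in 70.4% of the mitosis genes with a window against 42.3% of the tested genes and 37.4% of all windows. It was also in 62.5% of G1 genes, 59.3% of DNA replication genes and 59.4% of amino acid catabolism genes with a window. TTTCCCGC, an E2F site, was in 0 of the 27 mitosis genes and in 6 of 27 DNA replication genes (22.2%), against 2.06% of the tested genes and 1.07% of all windows. TTTGAA was in 14.8% of the DNA replication genes, the same as over all tested genes. The 3 motifs do not contain one another. These are matches of letters, and the windows shown were picked by p among those with a match.

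Ect2 had 0.786, 0.705, 0.925 and 1.12 CPM in the livers and 12.3, 5.96, 4.72 and 10.7 CPM in the tumors. It had a log2 fold change of 3.24 ± 0.43, adjusted p = 0.00359. Prc1 had 0.571, 0.897, 0.617 and 0.904 CPM in the livers and 15.2, 11.5, 7.84 and 16.8 CPM in the tumors (log2 fold change of 4.08 ± 0.56, adjusted p = 0.00426). In both, every tumor lay several times above the highest liver. Aurka differed less, with 5.50, 4.55, 5.09 and 5.11 CPM in the livers and 14.1, 15.9, 12.8 and 17.4 CPM in the tumors (log2 fold change of 1.57 ± 0.21, adjusted p = 0.004), and so did Spc25, with 3.00, 3.91, 4.47 and 3.46 CPM in the livers and 10.3, 16.0, 11.8 and 19.7 CPM in the tumors (log2 fold change of 1.96 ± 0.28, adjusted p = 0.00487). Of the genes chosen for size, Hmmr, which encodes a spindle-binding protein, had 0, 0.384, 0 and 0.479 CPM in the livers and 9.93, 6.13, 3.39 and 11.0 CPM in the tumors, and 2 of the livers held no read of it. It had a log2 fold change of 5.02 ± 1.16, adjusted p = 0.0281. Mki67, the gene of the proliferation marker Ki-67, had 1.36, 3.40, 3.08 and 5.85 CPM in the livers and 53.8, 52.7, 28.9 and 49.2 CPM in the tumors (log2 fold change of 3.74 ± 0.85, adjusted p = 0.0264). Foxm1, a transcription factor of the late cell cycle, had 0.143, 1.41, 0.386 and 1.54 CPM in the livers and 11.4, 15.7, 3.92 and 16.8 CPM in the tumors (log2 fold change of 3.75 ± 0.79, adjusted p = 0.0215). Birc5, the survivin of the chromosomal passenger complex, had 3.64, 3.91, 2.93 and 1.33 CPM in the livers and 16.0, 20.4, 7.21 and 10.8 CPM in the tumors (log2 fold change of 2.21 ± 0.58, adjusted p = 0.046), and was not called when any 1 of the 8 libraries was left out (adjusted p of 0.0526 to 0.114).

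The 2 mitosis genes whose groups overlapped were Spc24, with 19.6, 23.2, 11.7 and 22.6 CPM in the livers and 40.2, 24.1, 2.81 and 14.0 CPM in the tumors, and Kif20a, with 10.1, 10.6, 9.79 and 7.66 CPM in the livers and 33.8, 23.9, 9.86 and 15.6 CPM in the tumors. T-HCC941 was the lowest in both. Over the list, the median shift of log2(CPM + 1) from the mean of the livers was 2.16, 2.29, 1.5 and 2.36 in the tumors, against -0.15 to 0.26 in single livers. Even the lowest tumor, T-HCC941, stood clear of the livers. With mouse as a block 32 genes rose. Only 5 were called without NT-662, 5 without NT-663, 8 without NT-941 and 17 without T-HCA992.

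**Figure D2:**
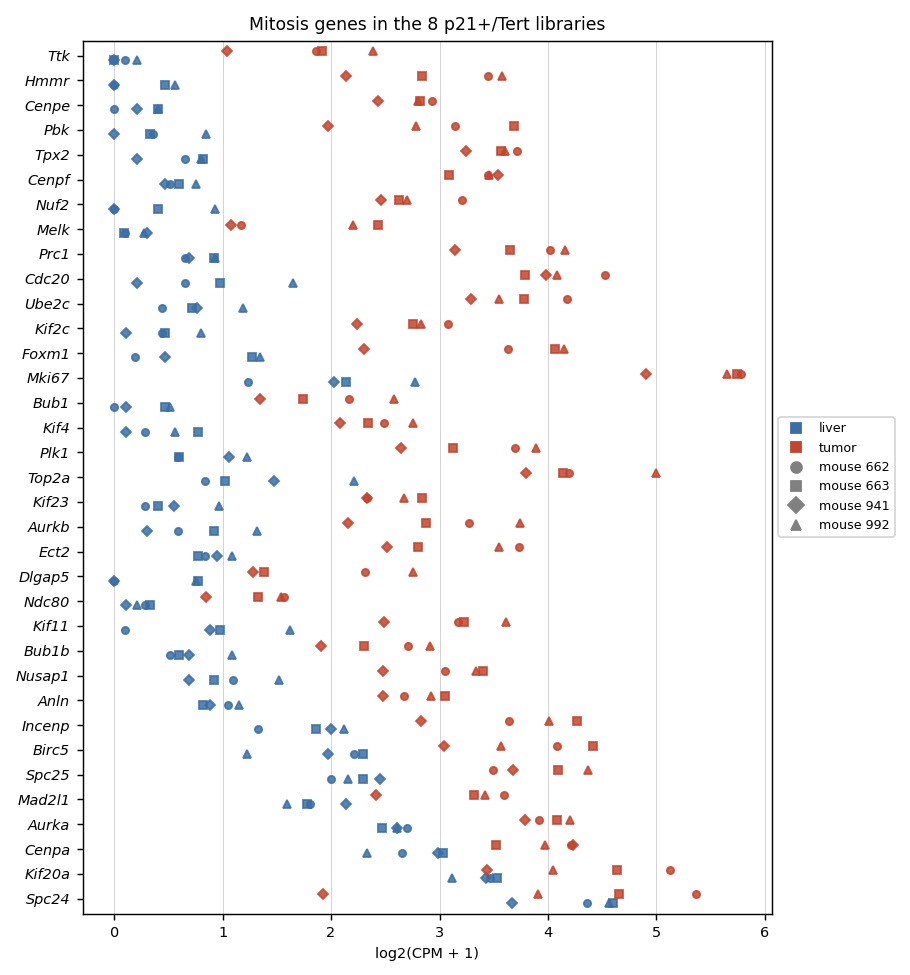
Level of each of the 35 mitosis genes on a log2(CPM + 1) scale in the 4 livers (blue) and 4 tumors (red) of p21+/Tert mice, with 1 symbol per mouse. Red lies right of blue in all genes but Kif20a and Spc24, at the bottom.

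DNA replication genes moved less. Of 33 tested, 5 rose and none fell, and the median log2 fold change was 0.72. Rrm2, which encodes a subunit of the reductase that makes deoxynucleotides, had 3.57, 6.66, 3.62 and 5.42 CPM in the livers and 21.3, 19.7, 15.6 and 60.3 CPM in the tumors (log2 fold change of 2.60 ± 0.49, adjusted p = 0.0136). Mcm6, of the replicative helicase, had 2.14, 3.52, 4.47 and 5.05 CPM in the livers and 15.8, 25.7, 11.4 and 23.9 CPM in the tumors (log2 fold change of 2.34 ± 0.41, adjusted p = 0.0106). Mcm2, Lig1 and Cdc45 also rose, by 1.75, 1.69 and 1.56, and Cdc45 was not called with mouse as a block (adjusted p = 0.0908). Here T-HCC941 differed from the others, with a median shift of 0.00 against 0.70 to 0.78. The number called was 2 without any 1 of NT-663, NT-941 and T-HCA992, 3 without T-HCC663 and 1 without NT-662.

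Among 22 G1 cyclins, kinases and inhibitors, 4 rose and none fell, both drivers and brakes of the cycle. Ccnd1, cyclin D1, had 18.4, 42.1, 10.0 and 23.4 CPM in the livers and 103, 123, 72.7 and 129.9 CPM in the tumors (log2 fold change of 2.19 ± 0.39, adjusted p = 0.0108). Rbl1, the p107 pocket protein, rose by 2.08. Cdkn2c, the kinase inhibitor p18, had 4.57, 3.52, 5.24 and 3.88 CPM in the livers and 19.1, 28.7, 16.1 and 19.8 CPM in the tumors (log2 fold change of 2.28 ± 0.33, adjusted p = 0.00477). Cdkn2b, the inhibitor p15, had 0.286, 0.512, 0.154 and 0.532 CPM in the livers and 2.68, 1.73, 17.4 and 22.0 CPM in the tumors (log2 fold change of 4.83 ± 0.95, adjusted p = 0.0162). It was several times higher in T-HCC941 and T-HCA992 than in the other two. Only 1 of the 4 was called without NT-662, and 2 without NT-663 or NT-941. In the list of 20 p53 targets 3 rose. Tnfrsf10b, the death receptor for TRAIL, had 0.928, 0.384, 0.694 and 0.585 CPM in the livers and 6.62, 5.36, 13.04 and 17.3 CPM in the tumors (log2 fold change of 4.02 ± 0.45, adjusted p = 0.00175). Btg2 and Phlda3 rose by 2.35 and 3.13, mostly in T-HCC941 and T-HCA992, and missed the threshold with mouse as a block (adjusted p = 0.075 and 0.108). Only 1 of the 20 was called without any 1 of NT-662, NT-663, NT-941, T-HCC941 and T-HCA992.

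Enzymes that break down amino acids fell. Of 37 tested, 12 fell and none rose, 20 had all tumors below all livers, and the median log2 fold change was -1.11. Tdo2, the dioxygenase that opens the tryptophan ring, had 865, 1298, 715 and 936 CPM in the livers and 129.7, 161, 278 and 317 CPM in the tumors (log2 fold change of -2.11 ± 0.35, adjusted p = 0.00803). Haao, Kynu and Kmo, which act further along that route, had log2 fold changes of -1.45, -1.75 and -1.06. Tat, tyrosine aminotransferase, had 1070, 1832, 1157 and 1397 CPM in the livers and 346, 307, 182 and 485 CPM in the tumors (log2 fold change of -2.05 ± 0.52, adjusted p = 0.0393). Fah, the last enzyme of tyrosine breakdown, fell by 1.11 on the log2 scale and was not called with mouse as a block (adjusted p = 0.0628). Prodh2, which oxidises hydroxyproline, lay in a narrow range in the tumors, with 447, 395, 342 and 297 CPM in the livers and 145, 149, 135 and 135 CPM in the tumors (log2 fold change of -1.39 ± 0.21, adjusted p = 0.00619). Branched-chain amino acid enzymes were among the 12, with -1.38 for Ivd, -1.43 for Mccc2 and -0.98 for Dbt. The list's median shift was -0.87, -1.09, -1.44 and -1.34 in the tumors, against -0.17 to 0.17 in livers. The number called was 5 without NT-662, 6 without NT-663 or NT-941, and 7 without NT-992 or T-HCC663.

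In the urea cycle, which turns ammonia into urea, 4 of 10 genes tested fell and none rose, and the median log2 fold change was -1.63. Ass1, argininosuccinate synthase, had 575, 687, 452 and 490.4 CPM in the livers and 75.0, 61.9, 59.5 and 76.9 CPM in the tumors (log2 fold change of -3.01 ± 0.41, adjusted p = 0.00426). The symbol Gm5424 carries nearly the same counts as Ass1, so reads appear to be counted on both. Otc, ornithine transcarbamylase, had 429, 440.0, 243 and 344 CPM in the livers and 83.8, 77.2, 84.8 and 55.2 CPM in the tumors (log2 fold change of -2.27 ± 0.34, adjusted p = 0.00611). Asl and the ornithine carrier Slc25a15 fell by 1.96 and 1.30 on the log2 scale, and Slc25a15 was not called with mouse as a block (adjusted p = 0.0538). Cps1, the first enzyme of the cycle, had 2090, 2935, 1978 and 2516 CPM in the livers and 124, 115, 872 and 848 CPM in the tumors. All tumors were below all livers for Cps1, with T-HCC662 and T-HCC663 several times lower than the other two, and it missed the threshold (log2 fold change of -2.28 ± 0.67, adjusted p = 0.0683).

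Of 15 genes of the methionine cycle and transsulfuration, 4 fell and none rose, and the median was -1.33. Gnmt, which uses up the methyl donor S-adenosylmethionine, had 1636, 2060, 1679 and 2052 CPM in the livers and 256, 350.5, 296 and 198 CPM in the tumors (log2 fold change of -2.75 ± 0.30, adjusted p = 0.00164). Cth, which makes cysteine from cystathionine, had 446, 420.2, 430.0 and 552 CPM in the livers and 87.6, 75.3, 69.2 and 67.2 CPM in the tumors (log2 fold change of -2.63 ± 0.24, adjusted p = 0.0007). Cbs, the enzyme before it, had 545, 651, 674 and 716 CPM in the livers and 205, 199, 157 and 242 CPM in the tumors (log2 fold change of -1.69 ± 0.24, adjusted p = 0.00475). Within each group these genes varied little, and the lowest liver was well above the highest tumor. Sardh, which breaks down sarcosine, fell by 1.62 on the log2 scale. In gluconeogenesis only Pck1, its rate-setting carboxykinase, was called among 17 genes, with 2238, 3393, 3435 and 1480 CPM in the livers and 349, 224, 367 and 206 CPM in the tumors (log2 fold change of -3.20 ± 0.60, adjusted p = 0.0132).

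Bile acid genes fell in part, with 5 of 18 called lower and none higher. Slc10a1, the main importer of bile salts, had 551, 472, 343 and 525 CPM in the livers and 23.3, 54.6, 86.7 and 152 CPM in the tumors (log2 fold change of -2.58 ± 0.55, adjusted p = 0.0229). Cyp8b1, which makes cholic acid, had 418, 173, 506 and 629 CPM in the livers and 8.54, 3.07, 45.7 and 85.6 CPM in the tumors (log2 fold change of -3.59 ± 0.91, adjusted p = 0.0406), and the lowest values were those of T-HCC662 and T-HCC663. Slc27a5 and Baat, which activate bile acids and couple them to taurine, fell by 1.83 and 1.53 on the log2 scale. The number called was 2 without any 1 of NT-662, NT-663 and T-HCC941, and 3 without any 1 of NT-941, NT-992 and T-HCC662. Of 34 cytochromes P450, 5 fell and none rose. They were Cyp7b1, Cyp8b1, Cyp2c37, Cyp2j5 and Cyp2u1. Cyp2u1 had 25.9, 27.6, 10.6 and 25.6 CPM in the livers and 0.0447, 0.259, 2.44 and 3.26 CPM in the tumors (log2 fold change of -3.89 ± 0.95, adjusted p = 0.035). Cyp2c37 had 465, 85.8, 469 and 580.0 CPM in the livers and 46.6, 49.2, 16.5 and 9.92 CPM in the tumors (log2 fold change of -3.71 ± 0.85, adjusted p = 0.0281), and was not called with mouse as a block (adjusted p = 0.0838). Only 1 of the 34 was called without NT-662, 3 without NT-663, and 2 without any 1 of NT-941, NT-992 and T-HCC941.

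Plasma proteins moved less as a group. Of 28 genes of coagulation and complement 3 fell and none rose. C8b and C9, of the complement pore, had log2 fold changes of -2.23 and -2.22, and F7, coagulation factor VII, -1.03. C8b had 284, 336, 297 and 166 CPM in the livers and 39.5, 39.4, 72.6 and 79.95 CPM in the tumors. Hamp, the iron-regulating hormone hepcidin, had 2271, 2423, 1113 and 944 CPM in the livers and 9.93, 44.4, 71.2 and 97.1 CPM in the tumors (log2 fold change of -4.92 ± 0.97, adjusted p = 0.0159), and the lowest liver was several times above the highest tumor. Its neighbour Hamp2 fell by 3.50 on the log2 scale. Reads of this near-identical pair may be split between them. Apoa5, which activates lipoprotein lipase, had 2363, 2212, 1882 and 1730 CPM in the livers and 831, 467, 375 and 689.6 CPM in the tumors (log2 fold change of -1.79 ± 0.47, adjusted p = 0.0444). Cebpa, a transcription factor of mature hepatocytes, had 928, 884, 734 and 682 CPM in the livers and 488, 301, 451 and 367 CPM in the tumors (log2 fold change of -1.01 ± 0.23, adjusted p = 0.0292) and was the gene called among 22 hepatocyte transcription factors. Of 16 genes of the tricarboxylic acid cycle, Sdhb and Fh1 fell, by 1.20 and 1.10 on the log2 scale. None of 21 genes of fatty acid oxidation and ketogenesis and none of 21 of cholesterol synthesis passed the test in edgeR, with medians of -0.30 and 0.57, 1 and 4 genes at an unadjusted p under 0.05, and 0 and 1 called by DESeq2. Without NT-662 no gene of the acute phase, apolipoprotein, transcription factor, tricarboxylic acid and iron lists was called. The 2 apolipoprotein calls were also lost without any 1 of the other libraries except T-HCC662, which left 1. That of Cebpa was lost without any 1 of NT-663, NT-941, T-HCA992, T-HCC663 and T-HCC941, and 1 of the 2 tricarboxylic acid genes remained without any 1 of these. For Hamp the adjusted p was at most 0.051 when 1 library was left out.

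Genes made mainly by male livers fell. Of 14 male-biased genes tested, 7 fell and none rose, and the median log2 fold change was -2.47. Hsd3b5, a steroid reductase of male liver, had 325, 352, 64.5 and 31.9 CPM in the livers and 0.492, 0.950, 1.32 and 0.0716 CPM in the tumors (log2 fold change of -8.12 ± 1.07, adjusted p = 0.00359). Susd4, a complement regulator, had 34.1, 16.5, 22.1 and 27.6 CPM in the livers and 0.224, 0.864, 0.583 and 0.895 CPM in the tumors (log2 fold change of -5.26 ± 0.44, adjusted p = 0.000539). Slco1a1, an importer of organic anions, had 338, 239, 118 and 63.1 CPM in the livers and 7.33, 8.34, 8.59 and 9.88 CPM in the tumors (log2 fold change of -4.47 ± 0.52, adjusted p = 0.00204), and varied little among the tumors. Elovl3, which lengthens fatty acids, had 146, 138, 179 and 657 CPM in the livers and 8.94, 20.4, 7.42 and 14.9 CPM in the tumors (log2 fold change of -4.44 ± 0.81, adjusted p = 0.0115). Cyp7b1, which hydroxylates oxysterols, had 428, 373, 777 and 157 CPM in the livers and 56.6, 41.3, 33.6 and 5.94 CPM in the tumors (log2 fold change of -3.66 ± 0.68, adjusted p = 0.0125). C8b and Ugt2b1 were the others. Median shifts of this list were -3.85, -2.93, -3.43 and -3.77 in the tumors, against -0.63 to 0.51 in livers. Between 6 and 8 of these genes were called when any 1 library was left out.

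Of 14 female-biased genes tested 2 rose, Cyp2a4 and Fmo2, and none fell, and the fitted log2 fold changes had a median of 1.58. Their median shift of log2(CPM + 1), 0.18, -0.25, 0.15 and 0.34 in the tumors, lay within the range of single livers, -0.32 to 0.48. Cyp2a4, a steroid hydroxylase, had 5.00, 4.74, 0.694 and 5.21 CPM in the livers and 16.3, 27.6, 2341 and 2312 CPM in the tumors (log2 fold change of 8.22 ± 1.83, adjusted p = 0.0249). The level in T-HCC941 and T-HCA992 was far above that in the other tumors. Neither gene was called with mouse as a block (adjusted p = 0.164 for Cyp2a4 and 0.0513 for Fmo2), and neither was called without any 1 of the livers, while 1 was called without any 1 of T-HCC662, T-HCC663 and T-HCC941. Cyp2a4 shares most of its sequence with Cyp2a5, so its reads may be split. In the growth hormone list of 12 genes, Igf1, the growth factor that growth hormone drives in liver, had 709, 698, 748 and 539 CPM in the livers and 224, 281, 98.3 and 185 CPM in the tumors (log2 fold change of -1.77 ± 0.38, adjusted p = 0.0232). Igfbp1, which binds it, had 4.21, 16.5, 20.5 and 21.8 CPM in the livers and 389, 143, 1277 and 547 CPM in the tumors (log2 fold change of 5.22 ± 0.93, adjusted p = 0.0108). Igfbp1 was called whichever library was left out. Igf1 was not without any 1 of NT-662, NT-663 and NT-941 and T-HCA992, and 3 genes of this list fell without T-HCC662 or with mouse as a block.

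Major urinary proteins, small pheromone carriers that male mice secrete in urine, gave most of the largest decreases. This family was taken up after its values were seen. All 19 Mup symbols tested had negative log2 fold changes, 16 fell at the threshold, and the median was -7.58. Mup8 (chr4:60218620-60222565) had 996, 292, 172 and 330.2 CPM in the livers and 0.0447, 0.0432, 0.795 and 0.680 CPM in the tumors. Mup13 (chr4:61224308-61228252) had 227, 139.6, 454 and 183 CPM in the livers and 0.134, 0, 0.212 and 0.824 CPM in the tumors. It had a log2 fold change of -9.64 ± 1.15, adjusted p = 0.00215. Mup1 and Mup15 fell by 8.53 and 8.64 on the log2 scale. LOC100048884 was likewise near 0 in the tumors, with 1217, 236, 165 and 754 CPM in the livers and 0.581, 0, 1.91 and 1.93 CPM in the tumors. Mup genes lie in 1 cluster on chromosome 4 and many are near-identical copies, so the level of a single symbol is uncertain. The fitted direction was shared by every symbol tested, but not every symbol was near 0 in the tumors. Mup20 had 6448, 8623, 4512 and 2051 CPM in the livers and 159, 304.5, 821 and 3022 CPM in the tumors (log2 fold change of -2.33 ± 1.12, adjusted p = 0.24), and its groups overlapped. Mup3 had 35.05, 11.1, 262 and 614 CPM in the tumors, below every liver, and missed the threshold (adjusted p = 0.057). In p21+/TertCi mice the median over the 19 was -2.10, but their livers were themselves low. Mup8 had 21.7 and 8.92 CPM in these 2 livers and 0.0509 and 9.08 CPM in the tumors. Measured from the p21+/Tert livers, the median shift of log2(CPM + 1) was -8.71 and -4.73 in the p21+/TertCi tumors, against -8.43, -8.47, -5.75 and -6.05 in the p21+/Tert tumors.

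Fetal liver and liver tumor genes rose. Of 20 oncofetal and tumor marker genes tested 9 rose and none fell, and the median log2 fold change was 3.76. H19, an imprinted non-coding RNA of fetal liver (chr7:142575530-142578146), had 0.643, 0.961, 0.231 and 0.106 CPM in the livers and 60.0, 4.15, 2038 and 17.2 CPM in the tumors (log2 fold change of 10.09 ± 2.42, adjusted p = 0.0334). The microRNA gene Mir675 lies inside H19 and shares its reads, with 8.09, 0.475, 254 and 1.43 CPM in the tumors and a single read over the livers. Igf2, the imprinted growth factor beside H19, had 0.571, 0.577, 0.694 and 1.12 CPM in the livers and 4.51, 0.994, 675 and 20.8 CPM in the tumors. T-HCC941 held by far the most of both, and for Igf2 the lowest tumor lay below the highest liver. Afp, alpha-fetoprotein, had 7.00, 2.88, 2.47 and 3.67 CPM in the livers and 11.8, 12.0, 230.5 and 116 CPM in the tumors (log2 fold change of 4.53 ± 0.94, adjusted p = 0.0199), highest in T-HCC941 and T-HCA992. Golm1, a Golgi protein used as a serum marker, had 2.57, 1.73, 1.47 and 3.03 CPM in the livers and 7.82, 11.4, 61.4 and 72.9 CPM in the tumors (log2 fold change of 4.11 ± 0.69, adjusted p = 0.00833). Prom1, the progenitor marker CD133, had 0.4999, 1.22, 0.231 and 1.06 CPM in the livers and 6.04, 17.6, 33.1 and 39.5 CPM in the tumors (log2 fold change of 4.96 ± 0.71, adjusted p = 0.00477). Summed over 8 bile duct cell markers, the level was 68.1 to 94.9 CPM in livers and 29.4, 53.4, 428 and 1095 CPM in the tumors, highest in T-HCC941 and T-HCA992, as was Prom1. None of these 8 markers passed the test or was at 0 in all libraries, and the part of such cells in the levels of Prom1 and the fetal genes was not tested. Akr1c18, which breaks down progesterone, had 0, 0.192, 0 and 0.106 CPM in the livers and 15.0, 9.68, 28.5 and 79.7 CPM in the tumors (log2 fold change of 8.58 ± 0.96, adjusted p = 0.00217). Ly6d, a surface protein, had 1.00, 16.9, 10.8 and 5.64 CPM in the livers and 1422, 144, 319 and 189 CPM in the tumors, with its peak in T-HCC662.

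With mouse as a block 5 of these 20 genes were called. The values were adjusted p = 0.0934 for H19, 0.0999 for Igf2, 0.0796 for Afp and 0.0513 for Sox4, the 4 that were lost. The number was 5 as well without any 1 of the livers. The list's median shift was 0.49, 0.50, 2.74 and 3.02 in the tumors, against -0.16 to 0.10 in livers.

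Among genes with at least 50 CPM in the group where they were higher, Adcy1 and Cpe were also among the largest increases. Adcy1, a calcium-stimulated adenylyl cyclase, had 0, 0.641, 0.848 and 0.585 CPM in the livers and 37.6, 2.77, 153 and 158 CPM in the tumors (log2 fold change of 7.38 ± 1.24, adjusted p = 0.00832). Cpe, the carboxypeptidase of peptide hormones, had 0.286, 1.41, 0.463 and 1.38 CPM in the livers and 28.7, 34.9, 171 and 24.1 CPM in the tumors (log2 fold change of 6.14 ± 0.95, adjusted p = 0.00663). T-HCC663 held the least Adcy1 and T-HCC941 the most Cpe. Of 17 genes of fatty acid synthesis 2 rose. Scd2, a desaturase of fetal liver and brain, had 3.79, 13.1, 3.62 and 18.5 CPM in the livers and 272, 23.9, 973 and 1134 CPM in the tumors (log2 fold change of 5.94 ± 1.19, adjusted p = 0.0171), and Pnpla3, a lipid droplet lipase, had 1.07, 5.32, 1.54 and 4.84 CPM in the livers and 27.5, 8.51, 74.4 and 169 CPM in the tumors (log2 fold change of 4.44 ± 0.95, adjusted p = 0.0228). In both genes T-HCC663 was the closest to the livers. Neither was called without any 1 of NT-662, NT-663 and NT-941.

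**Figure D3:**
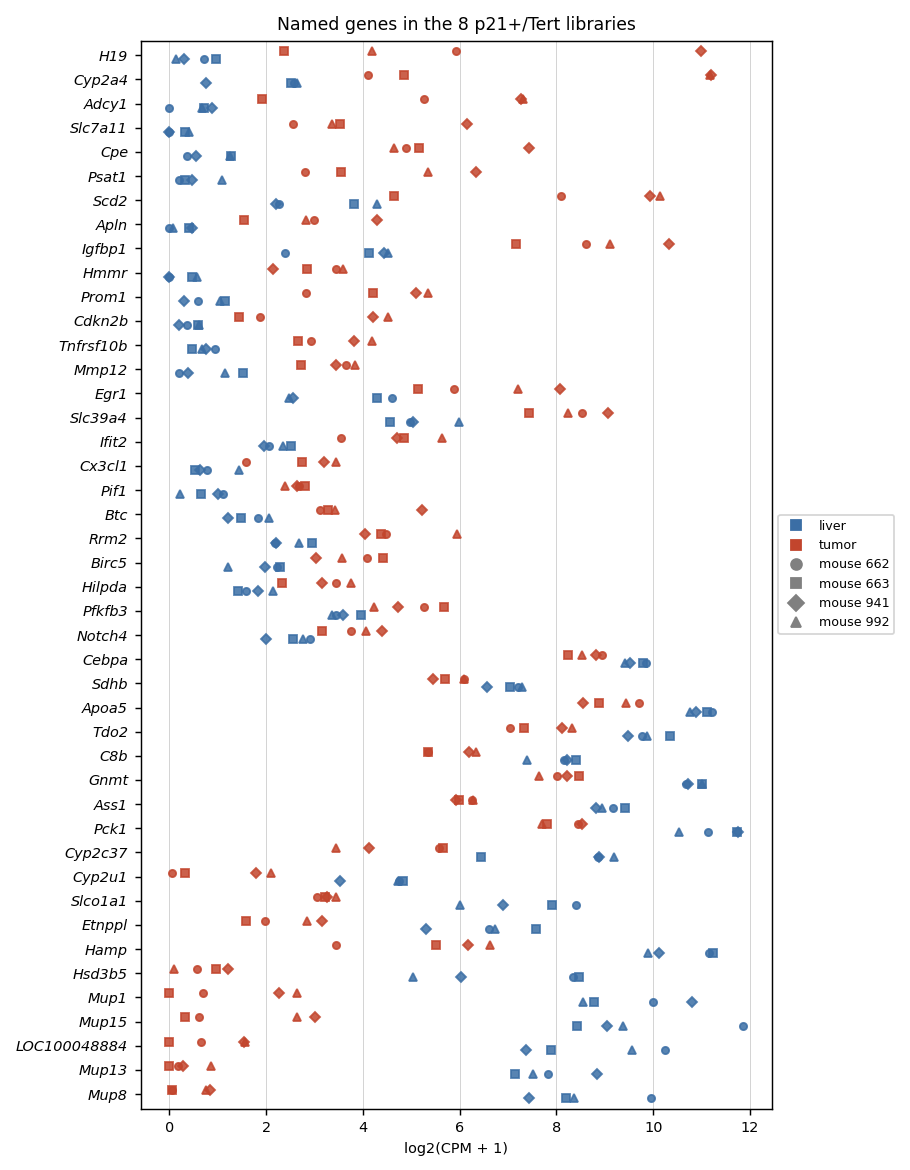
Level of the named genes other than Mir675, Tert, Cdkn1a and Hnf4a, ordered by log2 fold change. The scale is log2(CPM + 1), with the 4 livers in blue, the 4 tumors in red and 1 symbol per mouse. Every gene from H19 to Notch4 has all tumors above all livers, and every gene from Cebpa to Mup8 has all tumors below, as the naming rule required.

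Genes that respond to oxidative and amino acid stress rose in part. Of 26 Nrf2 targets 5 rose and none fell, with a median of 0.50, and 8 rose with mouse as a block. Slc7a11, the cystine importer, had 0, 0.256, 0 and 0.319 CPM in the livers and 4.87, 10.5, 70.3 and 9.27 CPM in the tumors (log2 fold change of 7.17 ± 1.22, adjusted p = 0.00869). Srxn1, sulfiredoxin, had 60.4, 64.1, 68.8 and 84.4 CPM in the livers and 225, 186, 418 and 212 CPM in the tumors (log2 fold change of 1.91 ± 0.31, adjusted p = 0.00789). Nqo1, a quinone reductase, had 9.93, 9.54, 9.18 and 9.36 CPM in the livers and 53.5, 39.4, 31.4 and 14.8 CPM in the tumors (log2 fold change of 1.87 ± 0.48, adjusted p = 0.0414), lowest among the tumors in T-HCA992. Abcc4 and Cbr3 rose by 3.61 and 5.38. Without NT-662, 2 of the 26 were called. Of 21 Atf4 targets 5 rose and none fell, with a median of 1.13. Psat1, of serine synthesis, had 0.143, 0.256, 0.386 and 1.12 CPM in the livers and 5.99, 10.7, 79.6 and 39.6 CPM in the tumors (log2 fold change of 6.08 ± 1.14, adjusted p = 0.0128). Atf3, a transcription factor of the stress response, had 0.571, 2.88, 1.70 and 2.02 CPM in the livers and 30.8, 15.9, 23.9 and 20.3 CPM in the tumors (log2 fold change of 3.65 ± 0.43, adjusted p = 0.00204). Fgf21, a hormone of the fasted liver, had 1.21, 1.92, 0.540 and 4.36 CPM in the livers and 86.2, 7.34, 32.4 and 61.1 CPM in the tumors (log2 fold change of 4.51 ± 1.03, adjusted p = 0.0278). Nupr1 and Mthfd2 rose by 3.99 and 2.19. Only 1 was called without NT-662 and 2 without NT-663.

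Amino acid transporters went both ways, with 4 higher and 4 lower of 21. Slc38a3, Slc38a4, Slc7a2 and Slc6a12, carriers of mature liver, had log2 fold changes of -1.56, -1.33, -1.77 and -0.97. Slc1a4, a carrier of neutral amino acids, had 4.50, 8.52, 9.56 and 15.3 CPM in the livers and 112, 63.0, 40.5 and 61.2 CPM in the tumors (log2 fold change of 2.86 ± 0.41, adjusted p = 0.0048), and Slc7a7 and Slc1a1 rose by 2.32 and 5.03. None of the 4 lower calls held without NT-662 or NT-663, 2 held without NT-941 or NT-992 and 1 without T-HCC941 or T-HCA992. The 4 higher calls became 2 without NT-662. The zinc importer Slc39a4 had 30.4, 22.7, 31.6 and 62.1 CPM in the livers and 370.3, 172, 536 and 301 CPM in the tumors (log2 fold change of 3.23 ± 0.54, adjusted p = 0.00803). None of 17 heat shock and unfolded protein genes passed the test in edgeR or DESeq2, with a median of 0.11 and 1 gene at an unadjusted p under 0.05.

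Growth factor genes were called in 5 of 22 tested, all of them ligands and all higher, while the list's median was -0.33. Pdgfa, a platelet-derived growth factor, had 4.43, 5.45, 3.08 and 4.68 CPM in the livers and 27.1, 30.1, 13.3 and 12.2 CPM in the tumors (log2 fold change of 2.23 ± 0.34, adjusted p = 0.00632). Btc, betacellulin, had 2.57, 1.79, 1.31 and 3.14 CPM in the livers and 7.60, 8.68, 36.2 and 9.67 CPM in the tumors (log2 fold change of 2.81 ± 0.55, adjusted p = 0.0156). Tgfa, another ligand of the EGF receptor, had 20.8, 22.3, 19.6 and 22.6 CPM in the livers and 32.4, 38.7, 29.6 and 48.8 CPM in the tumors (log2 fold change of 0.81 ± 0.18, adjusted p = 0.0268), a small difference with little spread. Pdgfb rose by 2.27. Areg, amphiregulin, had no read in the livers and 0.805, 1.34, 0.954 and 1.07 CPM in the tumors, and with mouse as a block its adjusted p was 0.0604. Only 1 of the 5 was called without NT-662 and 2 without NT-663 or NT-941. Of 17 genes that ERK signaling induces 4 rose. Egr1, an immediate early transcription factor, had 23.4, 18.5, 4.86 and 4.52 CPM in the livers and 57.6, 34.1, 267 and 147 CPM in the tumors (log2 fold change of 3.30 ± 0.81, adjusted p = 0.0361). Dusp6, the phosphatase of ERK, had 42.6, 33.2, 21.3 and 42.0 CPM in the livers and 97.2, 67.4, 99.6 and 148 CPM in the tumors (log2 fold change of 1.56 ± 0.28, adjusted p = 0.0115). Egr1 and Fosl1 were lost with mouse as a block (adjusted p = 0.12 and 0.089), and 2 of the 17 were called without any 1 of the livers or without T-HCA992.

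Vessel genes of the capillary type rose, and those of the sinusoids, the open vessels of liver, did not pass the test without pairing. Of 17 capillary and angiogenesis genes 6 rose and none fell, with a median of 1.36. Cd34, a capillary endothelial protein, had 1.21, 2.50, 1.85 and 1.44 CPM in the livers and 14.4, 4.67, 24.4 and 15.2 CPM in the tumors (log2 fold change of 3.06 ± 0.47, adjusted p = 0.00663). Aplnr, the receptor for apelin on sprouting vessels, had 0, 0.128, 0 and 0 CPM in the livers and 11.0, 1.12, 2.01 and 3.44 CPM in the tumors. Its ligand Apln had 0, 0.320, 0.386 and 0.0532 CPM in the livers and 6.97, 1.90, 18.7 and 6.09 CPM in the tumors (log2 fold change of 5.46 ± 1.02, adjusted p = 0.0127). Emcn, Cd93 and Esm1 rose by 2.05, 2.73 and 2.97. Without NT-662 3 of the 17 were called. None of 18 sinusoidal genes was called in edgeR without pairing (3 had an unadjusted p under 0.05, and DESeq2 called 2), while Ehd3 was called lower with mouse as a block (adjusted p = 0.0372). The list's median was -0.46, and the groups overlapped in all 18. Summed over 6 capillary endothelial markers the level was 27.1 to 98.8 CPM in livers and 60.7 to 172 CPM in tumors. For 8 sinusoidal markers it was 90.8 to 287 CPM and 76.0 to 246 CPM. No marker of either list was at 0 in all 8 libraries. The part of cell numbers in these differences was not tested.

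Few immune genes were called. Of 25 interferon-stimulated genes 3 rose, with a median of 1.53, and 12 rose with mouse as a block. Ifit2, which limits translation of viral RNA, had 3.14, 4.74, 2.85 and 4.09 CPM in the livers and 10.8, 27.9, 25.1 and 48.3 CPM in the tumors (log2 fold change of 2.91 ± 0.67, adjusted p = 0.0283). Usp18 and Rsad2 rose by 1.57 and 1.70. The list's median shift was 0.21 in T-HCC662 and 1.27, 1.62 and 1.41 in the others. None was called without NT-662 or NT-663, and 1 without any 1 of NT-941, NT-992, T-HCC941 and T-HCA992. Mmp12 and Gpnmb, made by activated macrophages, rose by 3.48 and 3.38, the 2 called of 21 Kupffer cell and macrophage genes, and 4 rose with mouse as a block. Without any 1 of NT-941, NT-662 and NT-992, 1 was called. Summed over 9 macrophage markers, T-HCC663 had 907 CPM, against 165 to 267 CPM in the other tumors and 175 to 362 CPM in livers. None of 21 T and NK cell genes and none of 11 B and plasma cell genes passed the test in edgeR, with medians of 0.82 and -1.51, although 1 and 3 had an unadjusted p under 0.05 and DESeq2 called 1 in each list. With mouse as a block 2 B and plasma cell genes were called lower, Cd79a and Jchain (adjusted p = 0.0471 and 0.0161). Of 17 antigen presentation genes, 0 were called by either tool, 0 had an unadjusted p under 0.05, and 2 rose with mouse as a block. Their median shift was 0.33, 0.70, 1.13 and 0.96 in the tumors, against -0.26 to 0.22 in livers. All tumors lay above all livers in 6 of these 17 and below them in 0. They also lay above in 6 of the 25 interferon-stimulated genes and 6 of 19 chemokines, against 8.13% of all genes tested. Summed over 6 B and plasma cell markers, NT-992 had 137 CPM, against 14.6 to 26.2 CPM in the other livers and 5.19 to 17.3 CPM in tumors. Of 19 chemokines Cxcl12, which draws lymphocytes and stem cells, fell, with 415, 456, 412 and 435 CPM in the livers and 95.0, 89.5, 95.5 and 188 CPM in the tumors (log2 fold change of -1.88 ± 0.33, adjusted p = 0.0108), and Cx3cl1 and Ccl4 rose by 2.89 and 3.49. Neither rise was called without any 1 of NT-662, NT-663 and NT-941, 1 was called without any 1 of NT-992, T-HCC663 and T-HCC941, and 4 chemokines rose with mouse as a block.

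In 4 further lists few genes were called, where 4.2% of all genes tested rose and 2.3% fell. The share that rose was 11.1% of glycolysis genes, 7.69% of lipid droplet genes, 6.67% of Notch genes and 20% of Yap targets, and 6.67% of Notch genes fell. Pfkfb3, which makes an activator of glycolysis, had 9.86, 14.5, 10.9 and 9.25 CPM in the livers and 37.2, 49.9, 25.5 and 17.7 CPM in the tumors (log2 fold change of 1.55 ± 0.35, adjusted p = 0.0278), and Pkm, the pyruvate kinase of fetal and dividing tissue, rose by 1.53, the 2 called of 18 glycolysis genes. Hilpda, which blocks the lipase of lipid droplets, rose by 1.83, 1 of 13. Notch4, a receptor of vessels, rose by 1.48 and Hes6 fell by 1.06 on the log2 scale, out of 15 Notch genes, and Notch4 was not called with mouse as a block (adjusted p = 0.0601). Ajuba, Tgfb2 and Birc5 rose among 15 Yap targets, by 1.72, 2.68 and 2.21. Without any 1 of NT-662 and NT-663 no rise in these 4 lists was called. Across the 45 named genes that were called, 21 were called whichever p21+/Tert library was left out. They were Adcy1, Apln, Cpe, Igfbp1, Prom1, Slc39a4, Slc7a11 and Tnfrsf10b among those that rose. Among those that fell they were Ass1, C8b, Etnppl, Gnmt, Hsd3b5, Pck1, Slco1a1, Tdo2, the Mup genes named and LOC100048884.

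The 4 tumors differed among themselves more than the livers did. The SD of log2(CPM + 0.5) had a median over the tested genes of 0.46 among tumors and 0.30 among livers, and it was larger among tumors in 73.5% of the genes. In pericentral hepatocyte genes, made around the central vein, the median shift was 2.19 and 0.61 in T-HCC662 and T-HCC663, and -3.25 and -2.98 in T-HCC941 and T-HCA992. Periportal genes, made around the portal vein, had -2.44 and -2.64, against -0.17 and -0.40. Of 15 pericentral genes 1 rose and 1 fell, Gstm3 and Cyp2c37, and neither call held when some single libraries were left out (any 1 of NT-941, NT-662 and NT-992 for both). Of 15 periportal genes 1 fell, Etnppl, which breaks down phosphoethanolamine, with 95.8, 189.7, 38.7 and 106 CPM in the livers and 2.95, 1.99, 7.84 and 6.23 CPM in the tumors (log2 fold change of -4.50 ± 0.88, adjusted p = 0.0153), whichever library was left out. Wnt feedback genes, which Wnt signaling induces and which hold it in check, split the tumors the same way, with median shifts of 1.55, 1.74, -2.11 and -1.51. None of the 11 tested passed the test in edgeR or DESeq2, and 3 had an unadjusted p under 0.05. Axin2, a scaffold that marks beta-catenin for destruction, had 14.0, 9.80, 10.9 and 11.4 CPM in the livers and 80.6, 71.9, 1.43 and 3.01 CPM in the tumors. Glul, the glutamine synthetase of the cells around the central vein, had 1104, 1144, 1860 and 1286 CPM in the livers and 9420, 10170, 138 and 152 CPM in the tumors. In both genes T-HCC662 and T-HCC663, the tumors with Ctnnb1 mutations, lay above every liver, and T-HCC941 and T-HCA992 lay below every liver. The part of these mutations in the split was not tested. T-HCC941 and T-HCA992 were also set apart by the fetal genes above. Urea cycle genes, in contrast, were at -1.27, -1.69, -1.47 and -1.24 in the tumors.

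**Figure D4:**
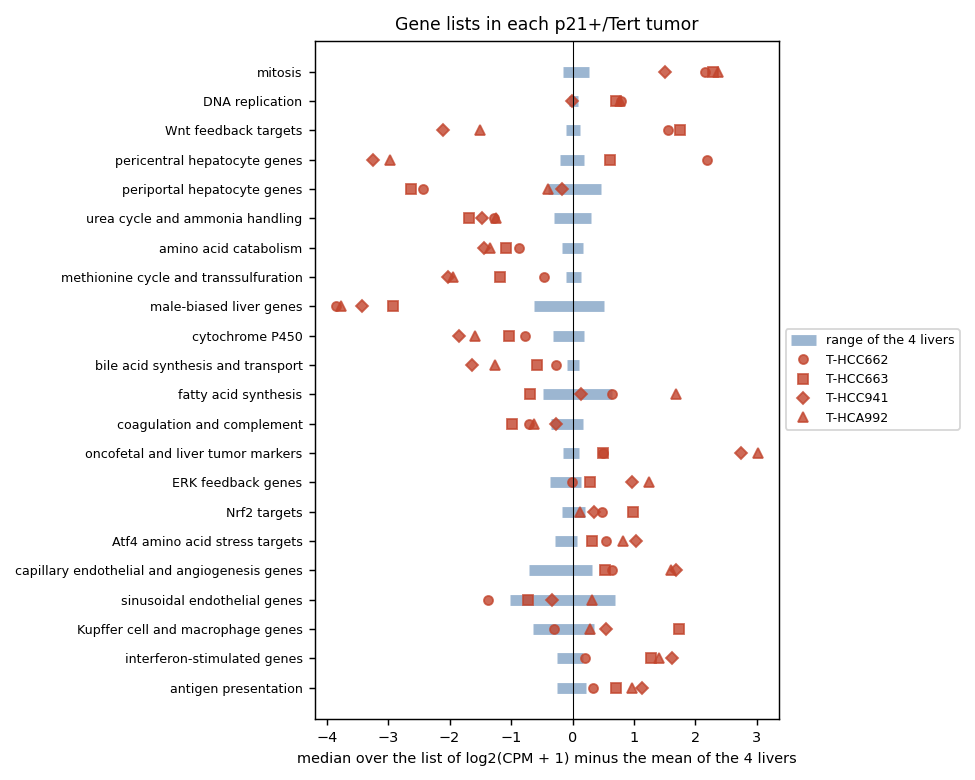
Shift of log2(CPM + 1) from the mean of the 4 livers, as the median over each gene list, for each tumor (red symbols) and as the range of single livers (blue bars). Mitosis, urea cycle and male-biased genes have all tumors on one side of the livers, whereas Wnt feedback and pericentral genes place T-HCC662 and T-HCC663 on the right and T-HCC941 and T-HCA992 on the left.

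The median expression of single chromosomes also shifted in the tumors. For 10448 genes with a mean of at least 5 CPM and a position in RefSeq, without Mup genes, log2(CPM + 1) in a tumor was compared with the mean of the livers and centered on the median of all genes. Over the autosomes and X, the median of a chromosome lay between -0.05 and 0.07 in livers, each compared with the other 3. It lay between -0.52 and 0.52 in tumors, and 35 of 80 values exceeded the largest size seen in a liver. T-HCC941 accounted for 16 of these, T-HCA992 for 9 and T-HCC662 and T-HCC663 for 5 each. In T-HCC662 chromosome 15 stood at 0.52 and chromosomes 4 and 19 at -0.29 and -0.26. In T-HCC663 chromosome 15 stood at 0.19 and chromosome 14 at -0.23, where 45.9% of the genes still lay above 0. T-HCC941 had 0.40 on chromosome 1 and 0.35 on X, and -0.52, -0.30 and -0.29 on chromosomes 13, 8 and 9. T-HCA992 had its lowest value, -0.35, on chromosome 17. Chromosome 15 was above the liver range in T-HCC662, T-HCC663 and T-HCC941 and at 0.06 in T-HCA992. DNA copies were not measured in these libraries. By exome sequencing, the paper detected no copy gain or loss in T-HCA992, unlike in the other tumors named here. It reports a gain of chromosome 15 and a loss on chromosome 4 in T-HCC662, and a rearranged chromosome 14 in T-HCC663. A gain of X in T-HCC663 and T-HCC941 and of chromosome 5 in T-HCC941 is also reported. Here X stood at 0.03 in T-HCC663, and chromosome 5 at 0.22 in T-HCC941. The cause of the expression shifts was not tested.

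**Figure D5:**
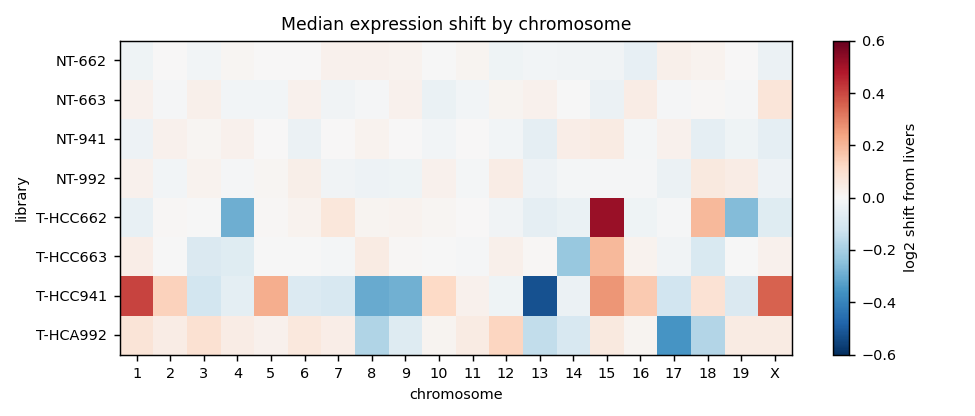
Median over the genes of each chromosome of log2(CPM + 1), relative to the livers and centered within the library, for the 4 livers (each against the other 3) and the 4 tumors. Livers stay between -0.05 and 0.07; T-HCC941 has the most shifted chromosomes, and chromosome 15 is high in T-HCC662, T-HCC663 and T-HCC941.

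The same difference was estimated in p21+/TertCi mice, from 2 tumors and 2 livers, and an interaction term compared the genotypes. It called no gene (0.0% of 15182 in edgeR), 556 had an unadjusted p under 0.05, and DESeq2 called 6. For mitosis genes the median log2 fold change was 3.42 in p21+/Tert mice and 0.97 in p21+/TertCi mice. For oncofetal genes it was 3.76 and 2.79, and for male-biased genes -2.47 and -1.51. Measured from the p21+/Tert livers, the median shift of the male-biased list was -4.58 and -2.50 in the p21+/TertCi tumors. In the p21+/Tert tumors that shift was -3.85 to -2.93. Hsd3b5 had -8.12 in p21+/Tert and -1.81 ± 2.08 in p21+/TertCi mice, a difference of -6.31 ± 3.34. It was already near 0 in the p21+/TertCi livers, at 0.127 and 0.495 CPM, and stood at 0 and 0.172 CPM in their tumors. For Gnmt the values were -2.75 and -1.09, a difference of -1.66 ± 0.49. The livers held 1636 to 2060 CPM of Gnmt in p21+/Tert mice and 887 and 468 CPM in p21+/TertCi mice. The tumors held 198.5 to 350.5 CPM in p21+/Tert mice and 305 and 330 CPM in p21+/TertCi mice. For Tdo2 the fold changes were -2.11 and 0.66, a difference of -2.77 ± 0.60. Slc7a11 had 7.17 and 8.80, and H19 10.09 and 11.74. A miss of the threshold does not show that the genotypes act alike.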

How the data were processed

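Poly(A) RNA of 8 p21+/Tert and 4 p21+/TertCi samples was sequenced as paired ends. Per the labels and the authors' methods, low-quality reads were dropped, the genome was mm10 plus mCherry, Subread aligned, and featureCounts 1.6.4 counted reads on genes. The deposited values are raw counts for 24421 gene symbols in each library. Strandedness, the treatment of reads with several alignments and the sequencing run of each sample are not given in the sources used here, so the run, which the authors corrected for, was not modelled.

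Counts were scaled (TMM) and tested with the quasi-likelihood test of edgeR 4.0.16 in R 4.3.3 after filterByExpr, with all 12 libraries in 1 model of the 4 groups and Benjamini-Hochberg adjustment at 0.05. CPM used the TMM-scaled library sizes (per 1000000). The SE after ± is the size of the log2 fold change over the square root of F. It was not fitted directly, so the SE of a difference need not match those of its parts. Replicates within a group come from different mice, while each tumor shares its mouse with 1 liver. The main test did not use this pairing. The authors' fold changes and tests were not used.

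Alternatives were RLE scaling, DESeq2 1.42.0, mouse as a block, all genes with at least 1 count, the p21+/Tert libraries alone, and each p21+/Tert library left out. A block within the p21+/Tert libraries alone was added after seeing the data. Same-numbered samples come from 1 mouse, which pairs them. Over the tested genes, deviations from the group mean had a median r of 0.11 between a tumor and its own liver (0.16, 0.05, 0.03 and 0.41), against -0.05 with livers of other mice.

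The genes, gene lists and motifs were chosen with earlier results of these data known. From each of 49 lists the called gene of largest change was named, with tumors and livers not overlapping and a mean of at least 5 CPM in either group. To these were added the 5 largest changes in each direction with at least 50 CPM in the higher group, and Tert, Cdkn1a and Hnf4a. Other list members are given as such. Positions and promoters are from RefSeq (GRCm38.p6), where 24299 of the symbols were placed. In counts simulated from these libraries for this comparison, over 14917 genes, the test recovered 5 of 100 genes changed 2-fold and 56 of 100 changed 4-fold, with 2 false calls. DESeq2 recovered 19 and 80, with 44 false calls.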

Additional observations from a re-analysis of the deposited data

Results flagged for a closer look

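Among 96 groups of 4 libraries (48 named genes in tumors and in livers), 5 held a library far from the other 3 on the log2 scale, and chance alone puts about 1 in 20 groups past this limit. Btc was at 36.2 CPM in T-HCC941, against 7.60 to 9.67 CPM in the other tumors. Cyp2a4 was at 0.694 CPM in NT-941, against 4.74 to 5.21 CPM in the other livers. Cyp2u1 was at 10.6 CPM in the same liver, against 25.6 to 27.6 CPM. Cyp2c37 was at 85.8 CPM in NT-663, against 465 to 580 CPM. Mir675 was at 0.0641 CPM in NT-663, a single read, against 0 in the other livers. Tdo2 fell in each of the 4 p21+/Tert mice and rose in both p21+/TertCi mice, with log2 fold changes of -2.11 and 0.66. The interaction term for Tdo2 did not pass the threshold (adjusted p = 1.0 in edgeR).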

How the results depend on the processing

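DESeq2 called 1335 genes higher and 774 lower in p21+/Tert tumors and 6 for the difference between genotypes, where edgeR called 637, 349 and 0. With mouse as a block the counts were 785 and 522, and 831 of the 986 genes called without the block were called with it. Without T-HCC662 and NT-662, a liver matched by elimination, the block gave 420 and 229. Within the p21+/Tert libraries alone the block gave 581 and 381. When 1 p21+/Tert library was left out, 151 to 754 genes were higher and 89 to 438 lower, and none differed between genotypes (0 in each fit). RLE scaling, every gene with a count and the p21+/Tert libraries alone kept each count within 1.5 times (641, 640 and 697 higher). None of the 45 named genes called changed sign under any alternative run, while Tert, which was not called, ranged from -0.90 to 0.10 when 1 library was left out and was above 0 only without T-HCC663. Of the 45 named genes called, 40 were called with the block, 41 by DESeq2 (the other 4, Cpe, H19, Mir675 and Slc7a11, have no DESeq2 adjusted p), 21 without each library in turn, and 45 under the other 3 single changes. The 4-against-4 design recovered 5 of 100 changes of 2-fold in simulated counts, so a gene not called may have changed. Intervals for p21+/TertCi mice rest on 2 tumors.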

Other observations

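Other gene families were looked at after their values were seen. Of all genes tested, 4.2% rose and 2.3% fell in p21+/Tert tumors. The shares that rose were 27.3% of annexins, 21.05% of tubulins, 11.1% of S100 genes, 9.09% of laminins and 5.88% of collagens. Another 5.88% of collagens fell. Integrins, with 3.7% higher, and clade A serine protease inhibitors, with 4.76% lower, had 1 call each. Among annexins, which bind membranes when calcium rises, 3 of 11 tested rose and none fell. Anxa2 had 7.00, 15.8, 6.94 and 22.1 CPM in the livers and 254, 146, 98.6 and 136 CPM in the tumors (log2 fold change of 3.61 ± 0.44, adjusted p = 0.00217), and Anxa5 and Anxa4 rose by 1.47 and 0.78. Anxa4 was not called with mouse as a block (adjusted p = 0.0549). When 1 library was left out, it was called in 2 of 8 fits and Anxa5 in 5. S100a11, a calcium-binding partner of annexins, rose (log2 fold change of 2.91 ± 0.31, adjusted p = 0.00151), the gene called among 9 S100 genes, with every tumor above every liver. Of 19 tubulins, the subunits of microtubules, 4 rose and none fell. Tubb6 rose in every tumor (log2 fold change of 2.19 ± 0.23, adjusted p = 0.00139), and Tuba1b, Tuba8 and Tubb2b rose by 1.34, 3.35 and 4.05, called in 8, 1 and 5 of the 8 fits. Of 11 laminins, which build basement membranes, 1 rose and none fell. It was Lama5, with 11.2, 5.51, 5.24 and 9.36 CPM in the livers and 78.8, 34.4, 118 and 60.3 CPM in the tumors (log2 fold change of 3.21 ± 0.40, adjusted p = 0.00294), called whichever library was left out. Of 34 collagens 2 rose and 2 fell. Col4a1 and Col4a2, of type IV, rose by 2.61 and 2.17, each called in 3 of the 8 fits, and for both the groups overlapped. Col25a1 fell by 5.73 and Col5a3 by 1.14 on the log2 scale, called in 5 and 1 of the 8 fits, and Col25a1 was not called with mouse as a block (adjusted p = 0.0773).

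Families of drug and steroid metabolism fell in part, where 2.3% of all genes tested fell. Of 17 carboxylesterases 4 fell and none rose, and Ces3b had 1204, 565, 612 and 361 CPM in the livers and 35.7, 24.4, 66.2 and 32.0 CPM in the tumors (log2 fold change of -4.12 ± 0.74, adjusted p = 0.0113). Of 13 sulfotransferases 3 fell and 1 rose. The latter, Sult2a2, had no read in the livers and 0.251 to 1.32 CPM in the tumors, and was not called with mouse as a block (adjusted p = 0.0524). Sult2a8, a bile acid sulfotransferase, had 1331, 818, 765 and 711 CPM in the livers and 116, 51.2, 36.1 and 22.3 CPM in the tumors (log2 fold change of -4.01 ± 0.88, adjusted p = 0.0238), called in 2 of the 8 fits. Of 18 UDP-glucuronosyltransferases 3 fell and none rose, with a median of -0.09. Of 13 claudins none passed the test in edgeR, 5 had an unadjusted p under 0.05, and DESeq2 called 1.

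Y-linked genes were not equal across the tumors. Eif2s3y had 2.06, 37.7, 19.4 and 33.4 CPM in the tumors, lowest in T-HCC662, and 26.8 to 54.1 CPM in livers. Uty had 14.3, 14.0, 15.4 and 13.3 CPM in the livers and 8.40, 8.34, 6.89 and 11.8 CPM in the tumors, with every tumor below every liver (log2 fold change of -0.69 ± 0.20, adjusted p = 0.0611), and Kdm5d had 20.2, 16.1, 13.9 and 19.4 CPM in the livers and 9.34, 6.78, 6.36 and 18.1 CPM in the tumors. Ddx3y had 63.0, 79.9, 82.0 and 60.3 CPM in the livers and 58.2, 55.6, 35.6 and 66.7 CPM in the tumors, lowest in T-HCC941. In edgeR the adjusted p was 0.433 for Eif2s3y, 0.163 for Kdm5d and 0.286 for Ddx3y, so none of these Y-linked genes was called. Xist stood between 0.160 and 1.43 CPM in these libraries, highest in T-HCC941.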
